A study of Mus musculus with 6 samples.

Results

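The BCL2 family of cell death genes was followed in retinas of newborn mice that lacked cyclin D1 and of wildtype newborns. Its members were taken as every probe set annotated to a single gene symbol among Bax, Bak1, Bid, Bbc3, Pmaip1, Bcl2l11, Hrk, Bcl2, Bcl2l1 and Mcl1. This gave 29 probe sets out of 34945 with 1 gene symbol, and 9 genes out of 18193 named on the array. Bax had no probe set with that annotation here and was not analysed. RNA from 3 numbered pools of Cyclin D1 -/- retinas and 3 numbered pools of wildtype retinas, both collected at birth, was hybridised to 1 Affymetrix array each. The labels name no strain, no design of the Ccnd1 allele and no number of animals in a pool. Each p-value thus rests on the spread between these 3 pools of a genotype and not between single animals. In the fit, each gene's variance was also drawn toward that of tested genes of like signal. The submitters' question concerned genes with cyclin D1 on their promoters and the direction in which its loss moves them. Their binding data were not used here.

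Members of the BCL2 family decide whether the outer membrane of mitochondria stays sealed. BAX and BAK form the pores that let cytochrome c out and start the caspase cascade. The BH3-only members set these effectors off or block their guards, and the pro-survival members BCL2, BCL-xL (Bcl2l1) and MCL1 hold both in check. In the newborn retina many neurons die by this route while the tissue is still growing, and Bax is known to be needed for the natural death of ganglion cells.

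Upstream sequence is shown for the tested members whose knockout and wildtype pools did not overlap below, Bcl2 and Bcl2l1, and for the BH3-only members that carry a FOXO word, Bcl2l11 and Bbc3. The sequences are RefSeq's, build GRCm38.p6, written along the gene's own strand. Each full window runs from 250 bases before to 50 bases after a start, and only bases before the start are printed. Capitals mark matches on either strand to the GC box (GGGCGG) in Bcl2, the E2F words TTTCCCGC, TTTGGCGC, TTTCGCGC and TTTGCCGC in Bcl2l1, and the FOXO word GTAAACA in Bcl2l11 and Bbc3.
Bcl2, chr1:106714291-106714540, minus strand: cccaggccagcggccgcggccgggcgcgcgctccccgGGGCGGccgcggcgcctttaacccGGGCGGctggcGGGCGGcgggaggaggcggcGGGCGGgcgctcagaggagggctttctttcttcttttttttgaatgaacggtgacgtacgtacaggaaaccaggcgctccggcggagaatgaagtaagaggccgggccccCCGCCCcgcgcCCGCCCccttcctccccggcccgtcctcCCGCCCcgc
Bcl2l1, chr2:152830718-152830967, minus strand: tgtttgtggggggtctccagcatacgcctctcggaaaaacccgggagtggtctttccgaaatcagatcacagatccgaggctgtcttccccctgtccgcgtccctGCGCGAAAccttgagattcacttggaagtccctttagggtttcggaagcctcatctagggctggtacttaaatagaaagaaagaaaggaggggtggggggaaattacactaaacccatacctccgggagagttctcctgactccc
Bcl2l11, chr2:128125788-128125847, plus strand: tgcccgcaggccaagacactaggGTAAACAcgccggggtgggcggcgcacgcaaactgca
Bbc3, chr7:16310064-16310130, plus strand: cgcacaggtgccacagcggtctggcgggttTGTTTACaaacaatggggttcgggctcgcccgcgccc

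The table of windows held 14 starts for 9 of the 10 members, Bax among them, and 32851 starts in all. A GC box, the binding word of SP1, lay in 10 of the 14 windows and in 35.7% of all windows. It occurred 7 times in the 250 bases of Bcl2. An E2F word, of the factors that the retinoblastoma protein holds back until D-type cyclins act, lay in 1 of the 14, at the Bcl2l1 start shown, and in 2.26% of all windows. The other Bcl2l1 starts held none. The FOXO word lay in 2 of the 14 windows and in 3.65% of all. Neither the STAT word TTCNNNGAA (8.3% of all windows) nor a pair of p53 half-sites with a spacer of up to 13 bases (0.0731%) was found in a member's window. These matches describe letters in the windows and were not tied to any measurement.

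Levels below are quantile-normalised array signals in linear units, and differences are knockout minus wildtype on the log2(signal + 16) scale, on which dim genes appear to move less than they do. A gene is represented by its brightest probe set, and genes were tested with limma across all 10916 genes above a floor of 57.8 units, with Benjamini-Hochberg adjustment and the submitters' false discovery rate of 0.1. Ccnd1, on chromosome 7, had 447, 432 and 468 units in knockout pools 1 to 3, against 5508, 5218 and 6017 in wildtype pools 1 to 3 (log2 difference -3.59, SE 0.08, limma adjusted p = 5.78e-07), so every pool matched its label. Across the array 222 genes were called higher in knockout (2.03%) and 287 lower (2.63%).

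Some differences between arrays did not follow genotype. The spiked-in controls BioB and BioC were brighter on knockout pools 1 and 2 and wildtype pool 3 than on knockout pool 3 and wildtype pools 1 and 2. Their mean log2 intensity was 9.82, 9.97 and 10.15 on the former and 9.53, 9.66 and 9.66 on the latter, in that order. The values were graded, and the 2 sets are a cut by rank. Values within these 2 sets of arrays are given below, each resting on 1 array of one genotype. Pools 1 and 2 of a genotype were also unusually alike, with an SD of the log2 difference between arrays of 0.21 in knockout and 0.22 in wildtype, against 0.28 to 0.52 for other pairs. Whether they share tissue or RNA is not known. Markers of several cell types also moved with genotype. All 6 tested mitosis markers were lower, with a summed signal of 1552 to 1943 units in knockout pools and 3891 to 4142 in wildtype pools, and 11 of 13 lens markers were higher, with sums of 23782 to 62230 units in knockout and 3019 to 8119 in wildtype pools. Mesenchyme markers (1 of 4 tested higher) summed to 1946, 2237 and 498 units in knockout pools 1 to 3 and to 368 to 411 units in wildtype pools. Of the retinal progenitor markers 2 of 6 tested were lower, with sums of 3380 to 3585 units in knockout and 4168 to 4450 in wildtype pools, and the retinal neuron markers (1 higher and 2 lower of 6 tested) had overlapping sums, at 4770 to 4970 units in knockout and 4774 to 4968 in wildtype pools. Microglia and leukocyte markers, of which 2 were bright enough to test and neither was called, summed to 433 to 442 units in knockout and 410 to 489 in wildtype pools. Pigment epithelium markers (1 of 4 tested lower) summed to 739 to 825 units in knockout and 828 to 1067 in wildtype pools, endothelial markers (0 of 2 called) to 1243 to 1275 units in knockout and 1335 to 1356 in wildtype pools, and no red blood cell marker was bright enough to test.

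No member of the BCL2 family passed the test in either direction. Bcl2 and Bcl2l1, both pro-survival, had the largest upward differences among the tested members, 1.41-fold and 1.17-fold, and in both all 3 knockout pools lay above all 3 wildtype pools. The largest difference downward was that of the BH3-only gene Bcl2l11. Of the 9 named members 7 were bright enough to test, and Bak1 and Pmaip1 were not. The pro-death gene Bak1 differed by 0.32 on the log2 scale, more than Bcl2l1 at 0.23. Its knockout pools also lay above its wildtype pools, by a narrow margin, so the upward differences were not confined to pro-survival members. None of the 7 was called by limma, where 4.66% of all tested genes were called, 2.03% as higher and 2.63% as lower. Bcl2 and Bcl2l1, 2 of the 7, had an unadjusted p under 0.05 with higher signal in knockout, against 6.68% of all tested genes, and none had one with lower signal (6.84%). The pools of the same 2 members lay apart with knockout higher, against 10.5% of all tested genes, and those of none lay apart with knockout lower (9.48%). Of the 19 member probe sets above the floor, none was called, against 1.95% higher and 2.49% lower over the 17206 probe sets tested the same way. An unadjusted p under 0.05 was found in 3 of the 19, all with higher signal in knockout, against 6.13% of all tested probe sets higher and 6.65% lower at that level. These are small counts, and probe sets of 1 gene share their transcript. The plot of signal by pool shows each member's representative probe set.

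**Figure D1:**
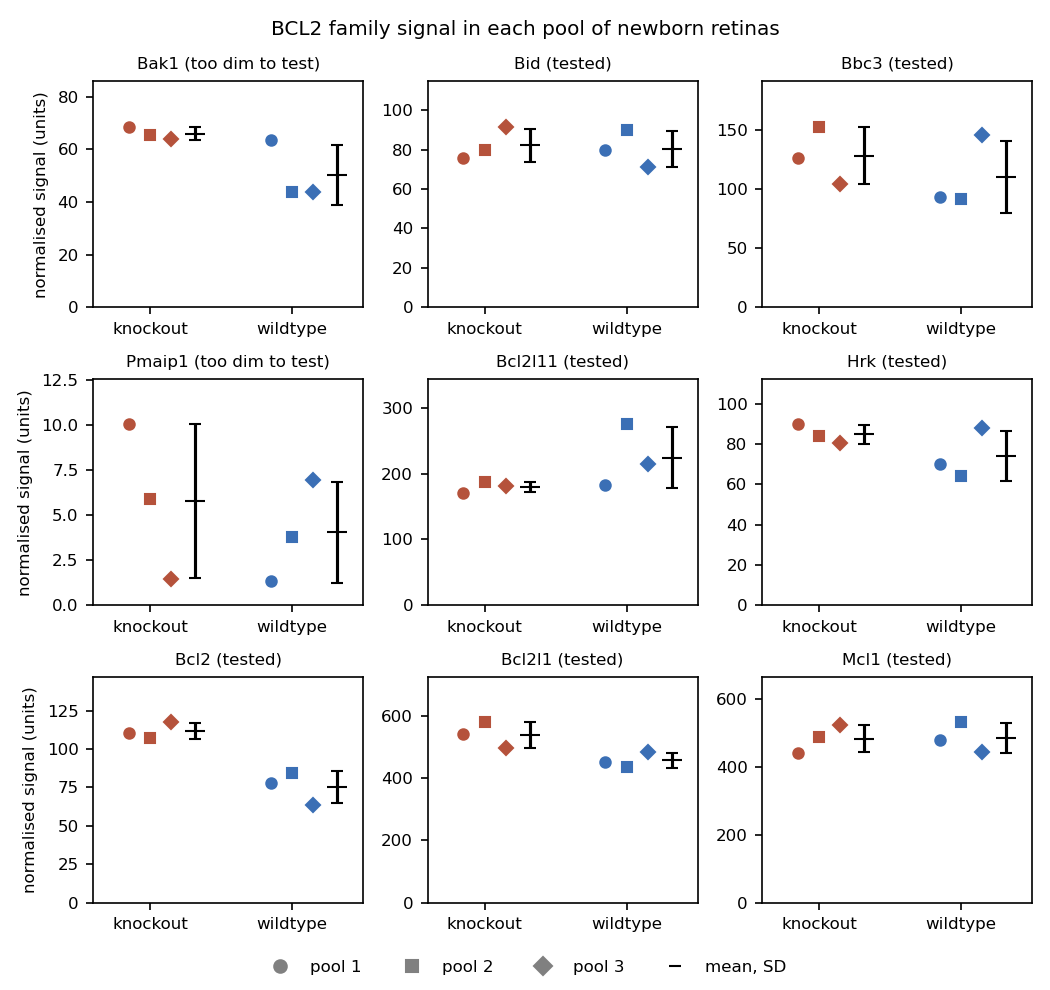
Normalised signal (linear units, axis from 0) of the representative probe set of 9 BCL2 family genes in 3 cyclin D1 knockout pools (left, red) and 3 wildtype pools (right, blue); symbols mark pool numbers and black bars the mean and SD. The groups lie apart for Bak1, Bcl2 and Bcl2l1 and overlap for the others, and Bak1 and Pmaip1 were too dim to test.

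Among the pro-death effectors, Bak1, which forms pores in the outer mitochondrial membrane, was dim, with a mean over the 6 arrays too low for the test. Its brighter probe set (1418991_at) gave 68.6, 65.5 and 63.8 units in knockout pools 1 to 3, against 63.3, 43.8 and 43.6 units in wildtype pools 1 to 3. The knockout pools were close together and all higher, but the lowest of them was less than 1 unit above wildtype pool 1. The log2 difference was 0.32, and with every named gene tested, dim ones included, the limma adjusted p was 0.615. The other Bak1 probe set differed by -0.01 and its groups overlapped. In bulk tissue, a change in the number of cells that express a gene and a change in RNA per cell cannot be told apart, here or for the members below.

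The BH3-only gene Bcl2l11 encodes BIM, which binds every pro-survival member and can activate BAX and BAK. Its representative probe set (1456005_a_at) read 171, 187 and 182 units in knockout pools, against 182, 275 and 215 units in wildtype pools. Wildtype pool 2 stood highest, and wildtype pool 1 fell among the knockout values. The log2 difference was -0.28 (SE 0.15, limma adjusted p = 0.547), a fold of 0.825 with a 95% interval of 0.644 to 1.06. It was -0.25 on the arrays with brighter controls and -0.28 on those with dimmer ones. All 5 Bcl2l11 probe sets pointed down, by 0.03 to 0.46 on the log2 scale, and none of the 3 bright enough to test was called. The dimmest (1426334_a_at) read 25.7, 18.7 and 24.8 units in knockout pools against 40.9, 35.6 and 36.3 in wildtype pools, with no overlap, but at under 57.8 units it was not tested.

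Bbc3 encodes PUMA, a BH3-only protein and a well known target of p53, and had 1 probe set (1423315_at). It read 127, 153 and 105 units in knockout pools, against 93.3, 91.9 and 146 units in wildtype pools. The 3 arrays with brighter hybridisation controls were the 3 highest, whichever their genotype, as they were in 17.2% of all tested genes. Between genotypes the log2 difference was 0.20 (SE 0.20, adjusted p = 0.831 by limma), but within the sets of arrays it was -0.06 with brighter controls and 0.15 with dimmer ones. The fold of 1.15 had a 95% interval of 0.831 to 1.60, a range that holds both a fall and a rise.

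Hrk, harakiri, is a BH3-only gene of neurons, and the brighter of its probe sets followed the same arrays. Its probe set 1439854_at had 89.9, 84.0 and 80.9 units in knockout pools, against 70.0, 64.5 and 88.1 units in wildtype pools. The 3 arrays with brighter controls were again highest, and wildtype pool 3 lay among the knockout pools. The log2 difference was 0.17 (SE 0.15, limma adjusted p = 0.785), with -0.02 on the arrays with brighter controls and 0.22 on the others. Its second probe set (1450366_at), too dim to test, differed by -0.07. There the order of the arrays was the opposite, with the 3 arrays with brighter controls lowest.

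Bid, a BH3-only protein that caspase-8 cleaves and that links death receptors to mitochondria, was nearly level. Knockout pools read 75.5, 79.6 and 91.6 units and wildtype pools 79.6, 89.8 and 71.3 units (1417045_at). The groups overlapped fully, with a log2 difference of 0.03 (SE 0.14, limma adjusted p = 0.980) and a 95% interval of 0.812 to 1.29 for the fold. Its 3 probe sets differed by -0.06 to 0.15. Pmaip1, which encodes NOXA, the BH3-only partner of MCL1 and another p53 target, was the dimmest member. It gave 10.05, 5.90 and 1.45 units in knockout pools against 1.35, 3.77 and 6.98 units in wildtype pools, far under the floor. With every named gene tested, its log2 difference was 0.11 (SE 0.18, limma adjusted p = 0.940). Mdm2, a p53 target outside the family, read 329, 283 and 279 units in knockout pools against 310, 286 and 318 in wildtype pools and was not called (log2 difference -0.04, limma adjusted p = 0.961).

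Bcl2, the founding pro-survival member, showed the clearest separation of the family. Its representative probe set (1457687_at) had 111, 107 and 117 units in knockout pools 1 to 3, against 77.8, 84.1 and 63.7 units in wildtype pools 1 to 3. Every knockout pool exceeded every wildtype pool, and the lowest knockout value was above the highest wildtype value by more than the SD of either group (5.34 units in knockout and 10.5 in wildtype, n = 3 each). The log2 difference was 0.49 (SE 0.14), a fold of 1.41 with a 95% interval of 1.12 to 1.76, but the gene ranked 653 of 10916 by p and its limma adjusted p was 0.143. Within the sets of arrays the difference was 0.65 with brighter controls and 0.46 with dimmer ones. A second Bcl2 probe set (1437122_at) also lay apart, by under 1 unit, with 68.3, 63.3 and 86.5 units in knockout pools and 62.3, 61.8 and 36.7 in wildtype pools. Another (1422938_at) did not, at 54.2, 69.5 and 63.7 units in knockout pools against 44.0, 66.2 and 69.5 in wildtype pools. Their log2 differences were 0.36 and 0.06. The 2 probe sets too dim to test differed by 0.15 and -0.01, with overlapping groups. The probe sets of Bcl2 thus disagreed in size.

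Bcl2l1 encodes BCL-xL, which guards neurons in the developing nervous system, and its signal was higher in knockout by a small step. Probe set 1420888_at read 543, 579 and 496 units in knockout pools, against 451, 436 and 483 units in wildtype pools. The groups did not overlap, but knockout pool 3 and wildtype pool 3 differed by little. The log2 difference was 0.23 (SE 0.10, limma adjusted p = 0.343), with 0.21 on the arrays with brighter controls and 0.16 on the others. The next probe set (1420887_a_at) gave 162, 134 and 162 units in knockout pools and 132, 91.3 and 105 units in wildtype pools, a log2 difference of 0.44. In probe set 1426191_a_at the pools were apart by a narrow margin, at 92.2, 88.7 and 107 units in knockout and 87.8, 64.6 and 82.1 in wildtype (log2 difference 0.25). All 3 bright Bcl2l1 probe sets thus had their pools apart, and the remaining one, too dim to test, pointed the other way (-0.25) with its groups overlapping.

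Mcl1 encodes a short-lived pro-survival protein, and its groups overlapped in all 6 of its probe sets. Its brightest probe set (1437527_x_at) had 441, 487 and 522 units in knockout pools, against 480, 531 and 444 units in wildtype pools, with a log2 difference of -0.00 (SE 0.11, limma adjusted p = 0.996). The 3 probe sets whose names end in x, which hold probes that can match other transcripts, differed by -0.04 to 0.05. The other 3 differed by 0.14, 0.10 and 0.33, and none was called. The sign for Mcl1 thus depended on the probe set, and it was positive with the mean of its probe sets (0.095).

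**Figure D2:**
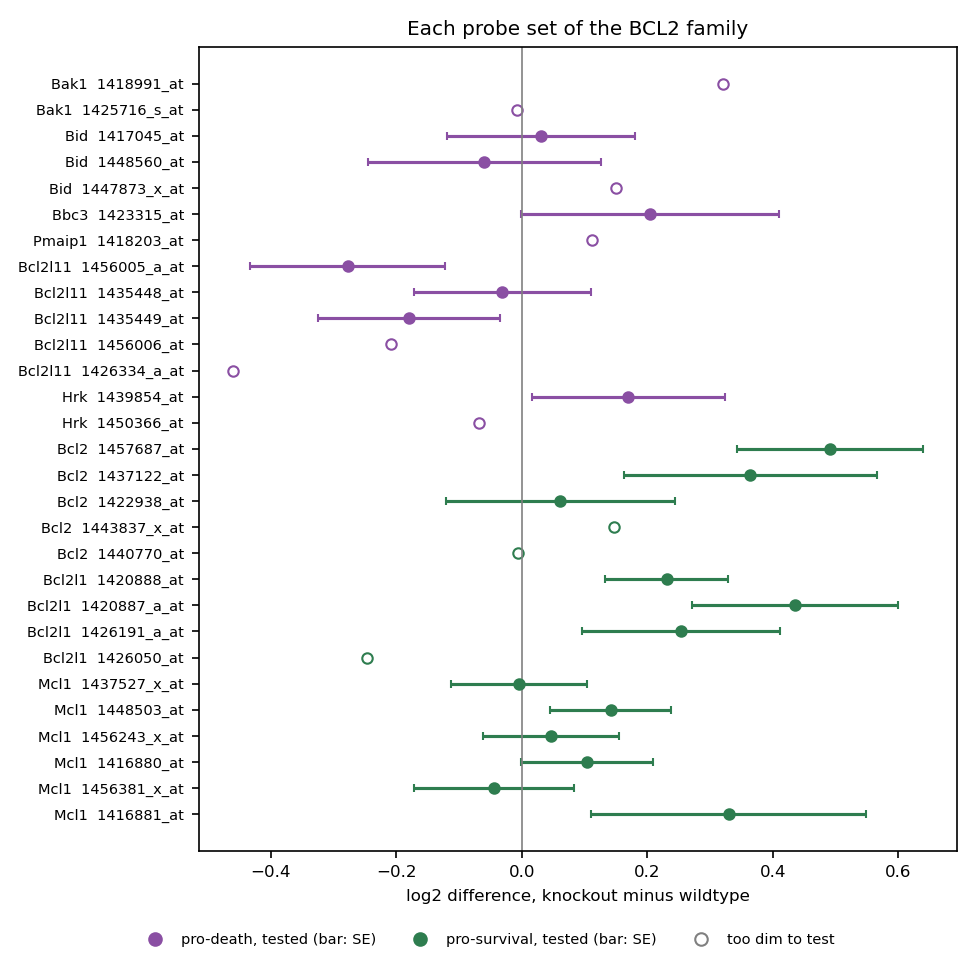
Log2 difference, knockout minus wildtype, of each of the 29 BCL2 family probe sets, pro-death genes in purple and pro-survival genes in green; filled points were tested and carry their SE, open points were too dim to test. All 5 Bcl2l11 probe sets lie below 0, and the 3 tested probe sets each of Bcl2 and Bcl2l1 lie above 0.

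Set side by side, the 3 tested pro-survival members had a median log2 difference of 0.23 and the 4 tested pro-death members one of 0.10, where all 10916 tested genes had a median of 0.02. All members missing from these medians are pro-death. Bax was not analysed, and the untested Bak1 and Pmaip1 differed by 0.32 and 0.11, both above the pro-death median. Over tested probe sets the medians were 0.19 for 12 pro-survival and -0.03 for 7 pro-death probe sets, against 0.02 over all probe sets tested. Of the 7, 3 belonged to Bcl2l11, and of the 12, 6 belonged to Mcl1. Genes with more probe sets thus weighed more in these medians, and probe sets of 1 gene are not independent. In 5 of the 12 pro-survival probe sets (2 of Bcl2 and 3 of Bcl2l1) the knockout pools were all above the wildtype pools, which was so in 9.98% of all tested probe sets, and in none were they all below (9.08%). Pools lay apart for none of the 7 tested pro-death probe sets. On the arrays with brighter controls the pro-survival median was 0.21 and the pro-death median -0.04. On those with dimmer controls they were 0.16 and 0.13. The lens and mesenchyme markers that were higher in knockout pools and the mitosis markers that were lower are given above, and their part in these differences was not tested.

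The calls of Bcl2 and Bcl2l1 turned on single arrays and on the weighting of arrays. Without wildtype pool 3, Bcl2 (log2 difference 0.40, limma adjusted p = 0.070) and Bcl2l1 (0.27, adjusted p = 0.097) were both called higher, in a fit that called 1917 genes against 509 with all arrays. Leaving out any other array called no member. With the values as deposited Bcl2 was called (0.56, adjusted p = 0.061), where the median of all genes was itself 0.13. With the array set as a block Bcl2 was called as well (0.55, adjusted p = 0.037), and after averaging pools 1 and 2 it was not (0.55, limma adjusted p = 0.742). The smallest difference of Bcl2 over its alternatives was 0.21, with the mean of its 5 probe sets (limma adjusted p = 0.439). Over 19 alternatives Bcl2 was called in 4 and over 20 Bcl2l1 in 2, always as higher. Every fit that called a member also called more genes across the array than the 509 given above, the most with array weights. Those counts are given in the last section.

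**Figure D3:**
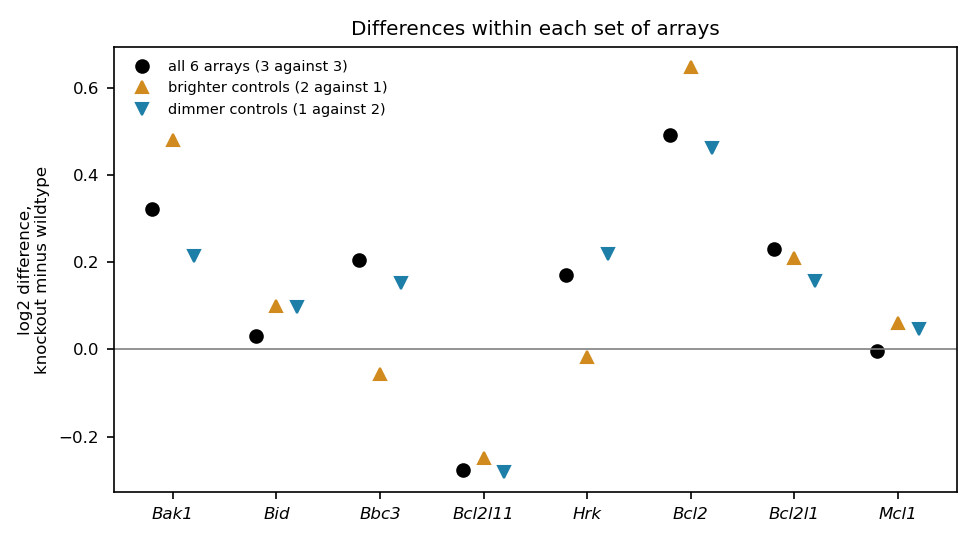
Log2 difference, knockout minus wildtype, of 8 BCL2 family genes over all 6 arrays (circles) and within the arrays with brighter (upward triangles, 2 knockout against 1 wildtype) and dimmer (downward triangles, 1 knockout against 2 wildtype) hybridisation controls. In both sets Bak1, Bid, Bcl2, Bcl2l1 and Mcl1 lie above 0 and Bcl2l11 below 0, while Bbc3 and Hrk change sign between them.

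The wider cell death machinery was covered by 6 lists with 71 genes, of which 62 were named on the array and 50 tested. Of the 50, 1 was called higher and 1 lower, against 2.03% and 2.63% of all genes. An unadjusted limma p under 0.05 was found in 4 of the 50, against 6.68% of all tested genes higher and 6.84% lower. The median log2 difference of the 50 was 0.02, the same as over all genes. The knockout pools lay wholly above the wildtype pools in 2 of the 50 and wholly below in 4, against 10.5% and 9.48% of all tested genes.

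Among inhibitors of apoptosis proteins, 1 of 4 tested genes fell and none rose. The gene that fell was Birc5, which encodes survivin, known also as a subunit of the chromosomal passenger complex of dividing cells. Birc5 read 274, 273 and 386 units in knockout pools, against 771, 894 and 646 units in wildtype pools, so the groups were far apart. It fell 2.41-fold (log2 difference -1.27, SE 0.17, limma adjusted p = 0.00735), with -1.19 on the arrays with brighter controls and -1.07 on the others, and lost its call in 1 of 20 alternatives, with pools 1 and 2 averaged (limma adjusted p = 0.174). All 6 tested mitosis markers were lower in the same pools.

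Of 6 mitochondrial channel and carrier genes 1 rose and none fell. This was Slc25a4, the ADP/ATP carrier of the inner membrane, at 2573, 2439 and 2457 units in knockout pools and 2043, 1952 and 1609 units in wildtype pools. Its log2 difference was 0.42 (SE 0.09, limma adjusted p = 0.0639), and the call ended in 10 of 20 alternatives, among them the fits without wildtype pool 2 and without knockout pool 1, 2 or 3 (limma adjusted p = 0.121, 0.272, 0.219 and 0.160). The log2 difference stayed above 0 in all 20, at 0.31 to 0.52. The outer membrane channels Vdac1, Vdac2 and Vdac3 differed by -0.01 to 0.17 on the log2 scale.

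The apoptosome, its caspases and the factors released from mitochondria had no member called of 11 tested, with a median of 0.10. The nearest were Casp2, an initiator caspase (294 ± 21.1 units in knockout and 363 ± 15.1 in wildtype pools, SD, n = 3 each, log2 difference -0.29, limma adjusted p = 0.226), and Apaf1, the scaffold of the apoptosome (-0.30, limma adjusted p = 0.495). The pools of Casp2 lay apart, with knockout lower, and those of Apaf1 overlapped. Casp9, which Apaf1 activates, differed by 0.28 with overlapping groups. BCL2 relatives outside the 10 members had none called of 9 tested. Bnip3, a mitochondrial protein linked to mitophagy and low oxygen, read 372 ± 67.3 units in knockout and 470 ± 64.1 in wildtype pools (log2 difference -0.33, limma adjusted p = 0.426), and Bcl2l12 differed by -0.26 (limma adjusted p = 0.503). Bnip3 had its pools apart, with knockout lower, and those of Bcl2l12 overlapped.

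Of 5 tested genes of the death receptor arm none was called. Ngfr, the p75 neurotrophin receptor, came closest, at 188, 166 and 145 units in knockout pools against 236, 226 and 294 units in wildtype pools, with no overlap (log2 difference -0.55, SE 0.15, limma adjusted p = 0.108). Casp8, the caspase that cleaves BID, differed by 0.23 (limma adjusted p = 0.739). Among 15 tested regulators of the family's genes and proteins none was called. Foxo1, a FOXO factor of the kind known to switch on Bcl2l11 and Bbc3, read 217, 268 and 220 units in knockout pools and 160, 105 and 226 units in wildtype pools, where wildtype pool 3 overlapped (log2 difference 0.53, limma adjusted p = 0.390, 0.09 on the arrays with brighter controls and 0.69 on the others). Atf4, of the stress response, differed by -0.25 (limma adjusted p = 0.458), and E2f1, which can switch on BH3-only genes, by 0.02.

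**Figure D4:**
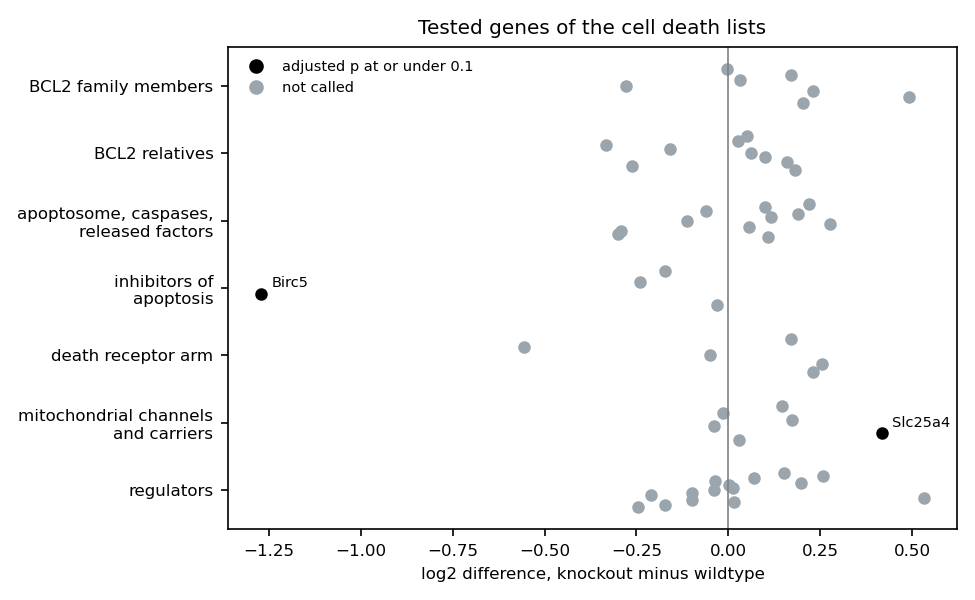
Log2 difference, knockout minus wildtype, of each tested gene of the BCL2 family and of the 6 other cell death lists; black points passed the false discovery rate of 0.1 and grey points did not. Birc5 at -1.27 and Slc25a4 at 0.42 are the called genes, and no BCL2 family member is among them.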

How the data were processed

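The deposited table holds intensity values of 45101 probe sets on 6 arrays. They are linear. No label or header names the program that summarised or scaled them, and detection calls played no part. Per the labels, biotin-labelled cRNA was made with 1 amplification round, and the submitters tested at a false discovery rate of 0.1. The 64 controls and all probe sets with several gene symbols (932) or none (9160) were left out of the tests. Symbols were updated through Entrez identifiers with RefSeq names (GRCm38.p6). Values were quantile normalised without controls, floored at 1 and taken to log2(value + 16). The lowest 40% of genes, by the mean of the brightest probe set, were not tested. R 4.3.3 with limma 3.58.1 fitted knockout against wildtype (lmFit, eBayes with an intensity trend, two-sided, no covariate), for 1 probe set a gene and again for all 17206 probe sets above the same floor. The fit was tested on simulated data with independent noise on each array and added differences larger than those of the members. That test does not cover smaller differences or differences shared across an array. Figures used matplotlib 3.10.9. No column was left unused.

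Members, lists and tests were chosen with earlier results of these data known, among them the array sets, which are ranks on the BioB and BioC controls. Named genes are the 10 members, Ccnd1 and, per list, called genes or the 2 with the smallest p. Mdm2, Casp9, E2f1 and the Vdac genes were named after their values were seen. Alternatives covered scaling, pseudocount, filter, probe set choice, variance model, array weights, threshold, blocks, averaged pools and each array left out.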

Additional observations from a re-analysis of the deposited data

How the results depend on the processing

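The precision is limited by 3 arrays a genotype, by probe sets near the floor and by the likeness of pools 1 and 2. No member was called with all arrays, and none was called under 16 of the 20 alternatives. Members called numbered 1 with values as deposited, 3 under array weighting (Bcl2, Bcl2l1 and Bbc3), 1 with the array set as a block, and 0 to 2 over the fits that leave out 1 array. Member probe sets called were 1, 3 and 2 under those settings and 0 to 1 with 1 array left out. Calls over all probe sets were not counted under those settings, so these counts have no background share. The numbers of all genes called under each of them follow. Values as deposited gave 414 genes higher and 176 lower, against 222 and 287 after normalisation, and moved the median of all genes to 0.13. All genes called were 509, against 236 with arrays centred on their medians, 3604 with array weights, 322 at a false discovery rate of 0.05, 1030 with the array set as a block, 43 with averaged pools and 167 to 1917 with 1 array left out. The replicate number as a block gave 269 genes and no member. Deviations of same-numbered pools from their genotype means correlated at 0.17, -0.35 and -0.48. Those of differently numbered pools correlated at -0.48 to 0.55. With 3 pools a genotype and differences between arrays that did not follow genotype, these values cannot show whether the numbers pair the pools. Other cell death genes called were 2, against 1 with median centring, no filter, the mean of all probe sets, no intensity trend or a rate of 0.05, against 4 with the probe set of largest difference or a block for the array set, 19 under array weighting, 0 with averaged pools and 1 to 6 with 1 array left out.

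The pro-survival median of 0.23 was 0.42 with values as deposited, 0.33 with median centring, 0.11 with the lowest 60% left out, 0.17 with the mean of probe sets, 0.44 with the probe set of largest difference, 0.18 with the array set as a block or averaged pools, and 0.18 to 0.29 with 1 array left out. The pro-death median of 0.10 was -0.036 with the lowest 60% left out, where 2 members remained. Mcl1 turned positive with values as deposited (0.17), median centring (0.083), the mean of probe sets (0.095), the probe set of largest difference (0.33), the array set as a block or averaged pools (0.053), and ranged from -0.064 to 0.061 with 1 array left out. Bid turned negative with array weights (-0.035) and ranged from -0.037 to 0.10 with 1 array left out. Bcl2, Bcl2l1, Bbc3 and Hrk stayed positive and Bcl2l11 negative under every alternative run. The causes were not tested.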
